A study of Mus musculus with 32 samples.

Results

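The chemokine system of the newborn mouse lung was examined through every array probe whose gene name begins with Ccl, Cxcl, Ccr, Cxcr, Xcl, Xcr or Cx3c, that is, through the chemokines and their receptors. Of 35715 gene names on the array, 55 met this rule, 35 chemokines and 20 receptors. A gene was kept where the scanner put a probe of it well above background in all 4 mice of some group, which left 48 genes, 30 chemokines and 18 receptors, of 27107 gene names kept in all. Of the kept genes, 45 could be tested at P5 and 48 at P14, since Ccr4, Ccr8 and Xcr1 passed the filter at P14 alone, Ccr4 only through the 21% O2 group with antimiR-34a, Ccr8 only through both 21% O2 groups and Xcr1 only through both 85% O2 groups. The 7 genes that were not kept were Ccl20, Ccl22, Ccl26 and Ccr1, which were well above background on 0 of 32 arrays, and Cxcl2, Cxcl3 and Ccr1l1, which were well above background on 3, 1 and 6 arrays.

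Steady-state mRNA levels were measured in the whole lungs of C57Bl/6J mouse pups that breathed either 21% O2 or 85% O2 from the first day of life, the latter being a model of bronchopulmonary dysplasia, the lung disease of preterm infants in which alveoli fail to form. All pups received an injected oligonucleotide, either a scrambled antimiR with no target or antimiR-34a, which binds and blocks the microRNA miR-34a, so no group was free of an antimiR. Lungs were taken at P5, when alveoli are forming fast, or at P14, when most have formed, which gave 8 groups of 4 mice (2 oxygen levels, 2 antimiRs and 2 ages) and 32 arrays. Each of the 4 array slides held 1 age and 1 oxygen level, so an oxygen or age difference cannot be told apart from a slide difference, and within a slide the antimiRs lay in different rows of arrays. Since whole lungs were used, fewer cells of a type and less mRNA per cell cannot be told apart in any value given here.

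Levels are given as the log2 intensity of a probe relative to the 75th percentile of its array, and each gene was read on its brightest probe. Levels of different genes cannot be compared on this scale, because probes differ in brightness. A difference was called where the limma p-value, adjusted by the Benjamini-Hochberg method over all tested probes, was under 0.05. The 6 markers of type II pneumocytes, a cell type found in lung alone, averaged between 5.87 and 6.32 on every array. Between 33606 and 38716 probes per array were well above background in 6 groups and between 39007 and 40774 in both 21% O2 groups at P14. One lung in 21% O2 with scrambled antimiR at P5 (replicate 4) carried skeletal muscle mRNA, with a mean muscle marker level of 1.55 against -2.62 to -1.73 in the other mice of its group. At P14 in 21% O2, replicate 4 of the scrambled antimiR group and replicate 1 of the antimiR-34a group stood apart in brightness, as did replicate 3 in 85% O2 with antimiR-34a at P5, the dimmest array of all.

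Chemokines are small secreted proteins that guide migrating leukocytes along a concentration gradient, and chemokine receptors are the membrane proteins, coupled to G proteins, through which leukocytes sense them. The inflammatory chemokines are switched on in macrophages, epithelium and endothelium by danger and cytokine signals, largely through the transcription factor NF-kappaB, whereas the homeostatic chemokines are made steadily and place lymphocytes and progenitor cells in tissue. In the lung, ligands of CXCR2 draw neutrophils, ligands of CCR2 draw monocytes, ligands of CCR3 draw eosinophils, and CXCL12 holds CXCR4-bearing cells in place.

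The microRNA that antimiR-34a blocks is shown first because the design rests on it. In the RefSeq annotation of GRCm38.p6 its mature form lies at chr4:150068473-150068494 on the plus strand, and the capitals mark the seed, bases 2 to 8, which pairs with target transcripts.

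mmu-miR-34a-5p: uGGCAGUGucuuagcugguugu

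The promoters shown next belong to 4 chemokines whose levels rose in 85% O2, Ccl1, Ccl9, Cxcl1 and Cxcl10, and they were chosen because they hold the NF-kappaB consensus motif, a stretch of 10 letters searched on both strands. Each is the 250 bases before the RefSeq start site, read 5′ to 3′ along the gene in GRCm38.p6, with capitals for the letters that match. Ccl1 lies at chr11:82179813-82180062 on the minus strand and Ccl9 at chr11:83578637-83578886 on the minus strand. Cxcl1 lies at chr5:90890995-90891244 on the plus strand and Cxcl10 at chr5:92348890-92349139 on the minus strand.

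Ccl1: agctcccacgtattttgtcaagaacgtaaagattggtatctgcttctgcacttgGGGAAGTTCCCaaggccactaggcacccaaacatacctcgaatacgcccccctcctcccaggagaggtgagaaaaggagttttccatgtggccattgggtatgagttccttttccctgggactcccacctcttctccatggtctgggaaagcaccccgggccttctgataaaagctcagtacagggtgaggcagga
Ccl9: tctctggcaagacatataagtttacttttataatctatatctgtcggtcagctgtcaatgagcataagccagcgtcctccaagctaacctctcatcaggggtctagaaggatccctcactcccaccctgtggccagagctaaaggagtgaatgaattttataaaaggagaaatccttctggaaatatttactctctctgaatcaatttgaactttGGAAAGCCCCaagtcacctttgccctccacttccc
Cxcl1: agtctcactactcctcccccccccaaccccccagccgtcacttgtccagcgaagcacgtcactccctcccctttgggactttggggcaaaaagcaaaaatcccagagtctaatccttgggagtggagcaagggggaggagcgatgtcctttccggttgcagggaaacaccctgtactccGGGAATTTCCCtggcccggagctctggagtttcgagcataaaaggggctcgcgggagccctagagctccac
Cxcl10: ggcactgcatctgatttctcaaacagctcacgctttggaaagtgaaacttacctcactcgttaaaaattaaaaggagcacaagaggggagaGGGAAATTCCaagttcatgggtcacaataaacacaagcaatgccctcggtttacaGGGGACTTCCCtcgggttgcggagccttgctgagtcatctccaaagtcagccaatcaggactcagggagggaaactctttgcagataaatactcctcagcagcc

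The first matched base lay at -196 in Ccl1, at -35 in Ccl9 and at -71 in Cxcl1, and Cxcl10 held matches at -159 and -104. RefSeq promoters were matched for 34 of the 48 kept genes, of which 7 held the motif (the other 3 were Ccr3, Ccr6 and Ccrl2), and 8.23% of all 27025 genes with a RefSeq promoter held it. Of the 13 matched genes that rose at P5, 4 held it. The interferon response motif GAAANNGAA, searched on both strands, lay in 8 of the 34 (Ccl1, Ccl3, Ccl19, Ccr2, Cxcl9, Cxcl10, Cxcl14 and Cxcr1) and in 8.18% of all genes. The letters TATAAA, searched on the sense strand, lay in 9 of the 34 and in 8.94% of all genes. Among those not matched were the promoters of Ccl2, Ccl4, Ccl5, Ccl7, Ccl11, Ccl24, Ccr7, Ccr10, Cxcl5, Cxcl11, Cxcl16, Cxcl17 and Cxcr5. A match describes letters in this window and is no evidence that a factor binds there.

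Oxygen was compared first, in mice that received scrambled antimiR. At P5, 23 of the 45 genes were called, 20 higher and 3 lower in 85% O2, where 45.7% of all tested genes were called, 21.1% higher and 24.6% lower. At P14, 34 of the 48 were called, 21 higher and 13 lower, against 61.2% of all tested genes, 29.4% higher and 31.8% lower. The median log2 fold change of the members was 0.34 at P5 and 0.26 at P14, and that of all tested genes was -0.04 at both ages. Chemokines and receptors did not move alike: 17 of 30 chemokines rose and 1 fell at P5, and 18 rose and 6 fell at P14. Among receptors, 3 of 15 rose and 2 fell at P5, and 3 of 18 rose and 7 fell at P14. The median change of the chemokines was 0.80 at P5 and 1.10 at P14, and that of the receptors was 0.10 and -0.39. Ccl1 and Xcl1, among the chemokines that rose, passed the filter only through 85% O2 groups. Ccr4, among the receptors that fell at P14, passed it only through the 21% O2 group with antimiR-34a. The directions of these genes follow in part from the filter.

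**Figure D1:**
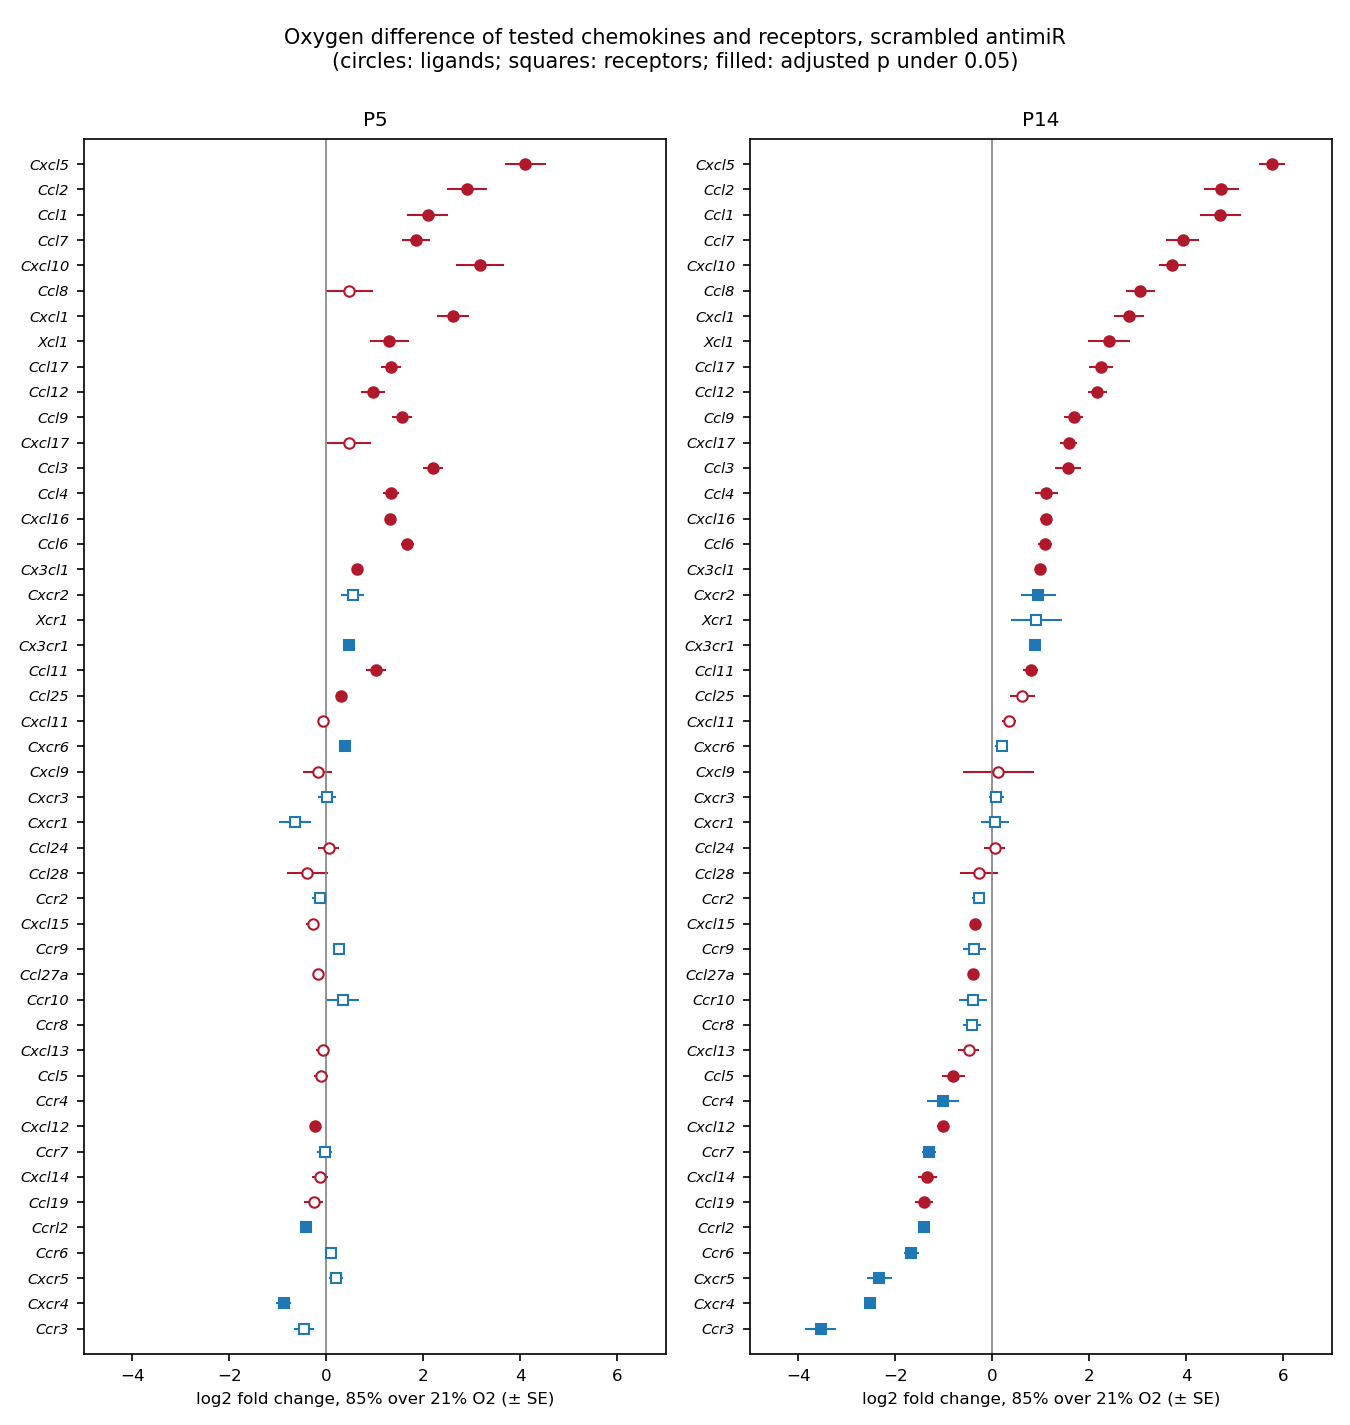
Log2 fold change of the tested genes reported here, 85% over 21% O2 with scrambled antimiR (x axis, ± SE from the limma fit), at P5 and P14, in the order of the P14 values. Circles are chemokines, squares are receptors, and filled points passed the adjusted p of 0.05. The change ran from -0.88 (Cxcr4) to 4.10 (Cxcl5) at P5 and from -3.54 (Ccr3) to 5.77 (Cxcl5) at P14.

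The largest rise at both ages belonged to a neutrophil chemoattractant. Cxcl5, an epithelial ligand of CXCR2, stood at -1.43, -2.73, -2.81 and -2.29 in the 4 mice in 21% O2 at P5 and at 2.37, 1.44, 1.43 and 1.91 in 85% O2. At P14 its levels were -3.63, -3.34, -4.58 and -3.98 in 21% O2 and 1.43, 1.74, 2.24 and 2.14 in 85% O2. At both ages every mouse in 85% O2 lay above every mouse in 21% O2, by more than the spread within either group. Cxcl5 rose 17.2-fold at P5 (log2 4.10 ± 0.42, SE, adjusted p = 4.8e-06) and 54.4-fold at P14 (5.77 ± 0.27, adjusted p = 1.8e-09), both on 4 mice per group. With normexp background correction, an alternative, the P14 value was 4.60, and the P14 differences of Ccl7 and Cxcl10 were 3.26 and 3.09.

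Cxcl1, another CXCR2 ligand, which macrophages and epithelium make early in inflammation, stood at -3.74, -4.54, -4.91 and -4.66 in 21% O2 at P5 and at -2.74, -1.78, -1.75 and -1.13 in 85% O2. At P14 it stood at -4.08, -4.09, -4.25 and -4.38 in 21% O2 and at -1.06, -1.53, -1.46 and -1.50 in 85% O2. The groups did not overlap at either age, although replicate 1 in 85% O2 at P5 was nearest to the 21% O2 mice. The rise was 6.12-fold at P5 (2.61 ± 0.33, adjusted p = 2.7e-05) and 7.03-fold at P14 (2.81 ± 0.31, adjusted p = 4.4e-06), or by 1.57 and 1.91 on the log2 scale with normexp background correction.

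Of the 5 neutrophil chemoattractants and receptors tested, 2 rose at P5 and 3 rose and 1 fell at P14. Beside Cxcl5 and Cxcl1, the gene to rise at P14 was Cxcr2, the receptor for Cxcl1 and Cxcl5, with 0.95 ± 0.37 (adjusted p = 0.037), but its groups overlapped and the call was lost in several refits, among them the fit without replicate 3 of the 85% O2 group (0.83). The one that fell was Cxcl15, a chemokine of lung epithelium, by 0.35 ± 0.10 on the log2 scale (adjusted p = 0.010). Cxcr1 was not called at either age. Neutrophil markers did not move along with Cxcl5 and Cxcl1 at P5, when 0 of 9 were called higher and 2 lower, with mean levels of -0.41 to 0.22 in 21% O2 and -0.62 to -0.10 in 85% O2. At P14, 3 were called higher and 1 lower, with mean levels of -0.70 to -0.28 in 21% O2 and -0.80 to 0.10 in 85% O2.

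**Figure D2:**
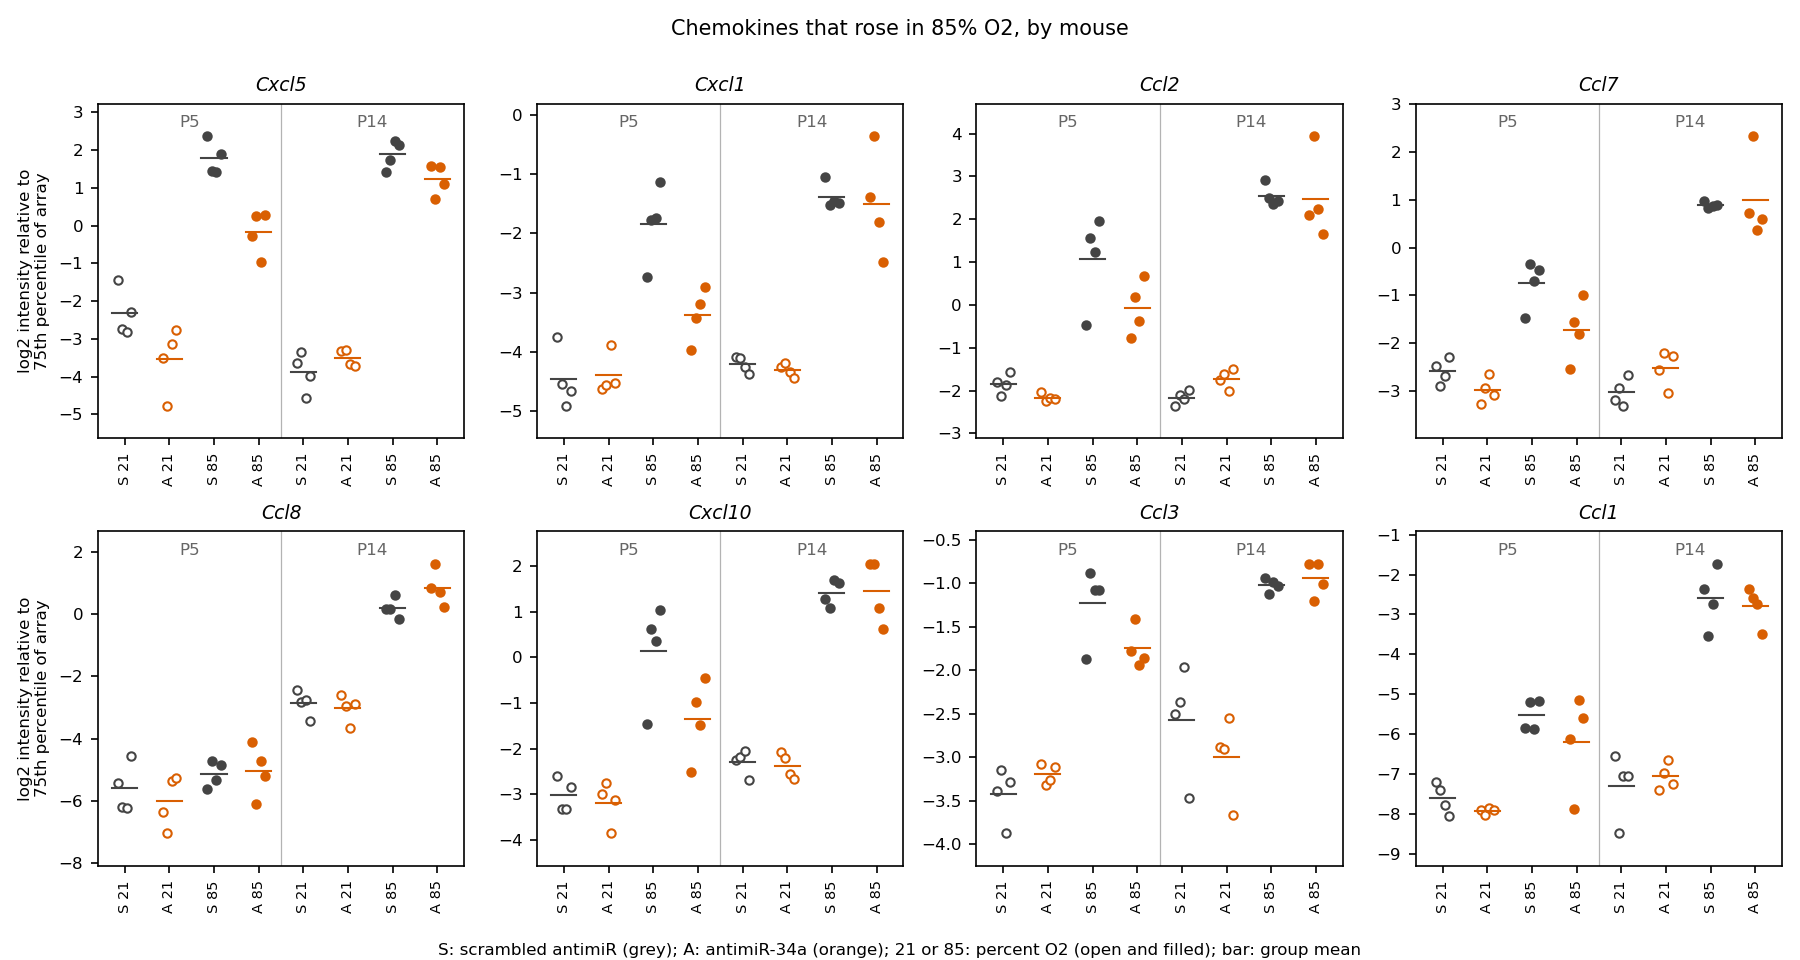
Level of 8 chemokines in each mouse (y axis, log2 intensity less the 75th percentile of its array) in the 8 groups, with 1 point per mouse and a bar at the mean of 4. S is scrambled antimiR, A is antimiR-34a, and open and filled points are 21% and 85% O2. Cxcl5, Cxcl1, Ccl2, Ccl7, Cxcl10 and Ccl3 were higher in 85% O2 in every mouse with scrambled antimiR at both ages, and Ccl8 at P14. Ccl1 was not well above background in any 21% O2 group, nor in 85% O2 with antimiR-34a at P5.

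Most chemokines of monocytes and macrophages rose at both ages. Of 13 such chemokines and receptors tested, 10 rose and 0 fell at P5, and 11 rose and 1 fell at P14. Ccl2, the main ligand of the monocyte receptor CCR2, stood at -1.80, -2.13, -1.88 and -1.56 in 21% O2 at P5 and at -0.47, 1.55, 1.23 and 1.95 in 85% O2. At P14 the levels were -2.36, -2.11, -2.20 and -2.00 in 21% O2 and at 2.92, 2.51, 2.35 and 2.44 in 85% O2. The groups were apart at both ages, and the spread in 85% O2 was wider at P5 (SD 1.07) than at P14 (SD 0.25) because replicate 1 was low. Ccl2 rose 7.50-fold at P5 (2.91 ± 0.41, adjusted p = 7.5e-05) and 26.4-fold at P14 (4.72 ± 0.35, adjusted p = 1.5e-07).

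Ccl7, a further CCR2 ligand, stood at -2.49, -2.90, -2.69 and -2.29 in 21% O2 at P5 and at -1.47, -0.34, -0.70 and -0.46 in 85% O2. At P14 it stood at -3.19, -2.95, -3.31 and -2.67 against 0.98, 0.84, 0.86 and 0.89. Its groups were apart at both ages, with a rise of 3.60-fold at P5 (1.85 ± 0.29, adjusted p = 0.00019) and of 15.1-fold at P14 (3.92 ± 0.34, adjusted p = 4.9e-07). Ccl12, the mouse counterpart of these CCR2 ligands, rose 1.95-fold at P5 (0.96 ± 0.24, adjusted p = 0.0057) and 4.48-fold at P14 (2.16 ± 0.19, adjusted p = 7.1e-07).

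Ccl8, also a monocyte attractant, had the largest difference between ages in this set. At P5 it was barely measured, at -5.44, -6.18, -6.22 and -4.55 in 21% O2, where 1 of 4 arrays was above background, and at -5.62, -4.71, -5.34 and -4.83 in 85% O2. At P14 the mice gave -2.44, -2.83, -2.76 and -3.43 in 21% O2 and at 0.15, 0.15, 0.59 and -0.17 in 85% O2. The groups overlapped at P5 (0.47 ± 0.49, adjusted p = 0.45) and were apart at P14, where it rose 8.27-fold (3.05 ± 0.30, adjusted p = 1.6e-06).

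Ccl3, a CCR1 ligand of activated macrophages, stood at -3.39, -3.15, -3.87 and -3.28 in 21% O2 at P5 and at -1.87, -0.88, -1.07 and -1.08 in 85% O2. At P14 it stood at -2.50, -2.37, -1.96 and -3.46 in 21% O2 and at -0.94, -1.12, -0.98 and -1.03 in 85% O2. The groups were apart at both ages, with rises of 4.58-fold (2.20 ± 0.20, adjusted p = 1.5e-06) and 2.94-fold (1.56 ± 0.27, adjusted p = 0.00025). Its neighbour Ccl4, a chemoattractant of monocytes and T cells, stood at -3.15, -2.66, -3.44 and -2.81 in 21% O2 at P5 and at -1.77, -1.33, -1.92 and -1.70 in 85% O2, again apart, and rose 2.52-fold at P5 and 2.16-fold at P14.

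Ccl6 and Ccl9, ligands of CCR1 that macrophages of mice make, rose as well. Ccl6 stood at 3.74, 3.57, 3.64 and 3.59 in 21% O2 at P5 and at 4.89, 5.57, 5.27 and 5.50 in 85% O2. Ccl9 stood at 0.82, 0.57, 0.77 and 0.84 against 1.59, 2.59, 2.61 and 2.46. Both were higher in every 85% O2 mouse. Ccl6 rose 3.18-fold at P5 (adjusted p = 3.8e-07) and 2.13-fold at P14 (adjusted p = 2.0e-05), and Ccl9 rose 2.95-fold (adjusted p = 4.9e-05) and 3.19-fold (adjusted p = 1.0e-05). The membrane-bound chemokine of endothelium and epithelium, Cx3cl1, rose 1.56-fold and 1.96-fold, and its receptor on monocytes, Cx3cr1, rose 1.38-fold and 1.84-fold on its brightest probe, with all 3 Cx3cr1 probes called higher at both ages. Ccr2, the receptor of the ligands that rose most in this set, stood at -1.64 to -1.28 in 21% O2 and -1.90 to -1.26 in 85% O2 at P5 and was not called at either age (-0.14 ± 0.16, adjusted p = 0.50 at P5, and -0.28 ± 0.13, adjusted p = 0.068 at P14). The one that fell at P14 was Ccl5, a chemokine that T and NK cells hold, by 0.80 ± 0.24 on the log2 scale (adjusted p = 0.011). At P14 the mean level of NK cell markers ran from -1.64 to -1.39 in 21% O2 and from -2.91 to -1.86 in 85% O2. That of T cell markers ran from -0.53 to -0.24 and from -1.48 to -0.61. The part of T and NK cells in the Ccl5 value was not tested.

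Monocyte and macrophage markers rose beside these genes, 6 of 9 at P5 and 6 of 9 at P14, with 1 and 2 called lower. The scavenger receptor Marco rose by 1.87 and 2.42 on the log2 scale, while the integrin Itgam fell by 2.03 at P14. Their mean level ran from 2.19 to 2.36 in 21% O2 and from 2.48 to 2.93 in 85% O2 at P5, and from 2.77 to 2.81 and from 2.98 to 3.62 at P14. The part of these cells in the chemokine values was not tested.

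Among the chemokines that are induced by interferon or draw effector T cells and their receptors, 4 of 7 tested rose at P5 and 3 of 8 at P14, and 0 fell. Cxcl10, an interferon-induced ligand of CXCR3, stood at -2.60, -3.32, -3.32 and -2.85 in 21% O2 at P5 and at -1.46, 0.61, 0.36 and 1.03 in 85% O2. By P14 it stood at -2.26, -2.19, -2.05 and -2.69 in 21% O2 and at 1.27, 1.08, 1.69 and 1.62 in 85% O2. The groups were apart at both ages, and replicate 1 in 85% O2 at P5, the mouse that was lowest for Ccl2, was again the lowest. The rise was 8.92-fold at P5 (3.16 ± 0.50, adjusted p = 0.00018) and 13.1-fold at P14 (3.71 ± 0.29, adjusted p = 1.8e-07).

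The other CXCR3 ligands could not be read as clearly. Cxcl9 was not called on its brightest probe (-0.18 ± 0.30 at P5 and 0.12 ± 0.74 at P14), while a second probe gave 2.43 ± 0.49 at P14 (adjusted p = 0.00070), with 3 of 4 arrays in 21% O2 above background. Cxcl11 was not called on its brightest probe (-0.06 ± 0.11 and 0.33 ± 0.15), and its second probe fell by 0.73 on the log2 scale at P5 and by 1.58 at P14, both called. Cxcr3, their receptor, did not pass at either age (0.01 ± 0.18 and 0.08 ± 0.16).

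Cxcl16, a membrane-anchored chemokine and scavenger receptor of macrophages, rose 2.49-fold at P5 (1.32 ± 0.08, adjusted p = 3.9e-08) and 2.14-fold at P14 (1.10 ± 0.12, adjusted p = 4.4e-06). Its receptor Cxcr6, found on T and NKT cells, rose at P5 by 0.39 ± 0.11 (adjusted p = 0.011, groups overlapping) and was not called at P14 (0.19 ± 0.13). Xcl1, which draws cross-presenting dendritic cells, stood at -6.27, -6.36, -5.97 and -5.85 in 21% O2 at P5 and at -4.99, -4.42, -5.15 and -4.69 in 85% O2. The P14 levels were -5.62, -6.35, -5.72 and -5.47 in 21% O2 and -3.19, -3.45, -3.12 and -3.79 in 85% O2, so the groups were apart at both ages. With 1 of 4 arrays in 21% O2 above background at P5 and 2 of 4 at P14, its measured difference was 1.30 ± 0.40 at P5 (adjusted p = 0.017) and 2.41 ± 0.44 at P14 (adjusted p = 0.00033). The alternatives gave 0.32 to 1.54 at the younger age and 1.11 to 2.93 at the older, lowest with normexp background correction, so its size is poorly known. Its receptor Xcr1 was measured at P14 alone and was not called there (0.91 ± 0.53, adjusted p = 0.15).

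In the set of eosinophils and type 2 responses, Ccl1, Ccl11 and Ccl17 were higher at both ages, and Ccr3 and Ccr4 were called lower at P14. Of the ligands and receptors in this set, 3 of 5 tested rose and 0 fell at P5, and 3 of 7 rose and 2 fell at P14. Ccl1, a ligand of CCR8, was not well above background on any array in 21% O2 at either age, so only a lower limit of its change is known. Its signals in 21% O2 were -7.20, -7.41, -7.77 and -8.05 at P5 and -6.56, -8.49, -7.06 and -7.06 at P14. In 85% O2 it stood at -5.84, -5.20, -5.88 and -5.17 at P5 and at -2.36, -3.54, -2.73 and -1.72 at P14, all above background. Ccl1 was therefore at least 1.34-fold higher at P5 (adjusted p = 0.0014) and at least 12.2-fold higher at P14 (adjusted p = 7.1e-07) on this scale, where the limit sets its mean in 85% O2 against the dimmest signal well above background on each 21% O2 array, or its own signal where that was higher. These limits hold for the scanner's background correction alone, since normexp gave a fitted 0.38 at P5 and 1.53 at P14 on the log2 scale. The p-values belong to the fitted differences from the 21% O2 signals and do not test the limits. Ccl1 and Xcl1 passed the filter only through the 85% O2 group with scrambled antimiR at P5 and only through both 85% O2 groups at P14, so their differences at both ages follow in part from the filter.

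Ccl17, a CCR4 ligand of dendritic cells, stood at -2.75 to -2.14 in 21% O2 and -1.64 to -0.62 in 85% O2 at P5, and at -0.33 to -0.03 and 1.59 to 2.30 at P14. It rose 2.51-fold (1.33 ± 0.21, adjusted p = 0.00022) and 4.71-fold (2.24 ± 0.25, adjusted p = 5.6e-06). Ccl11, or eotaxin, the fibroblast-derived ligand of CCR3, rose 2.04-fold (1.03 ± 0.21, adjusted p = 0.0011) and 1.73-fold (0.79 ± 0.16, adjusted p = 0.00090). Ccl24, a second eotaxin, was not called at either age (0.05 ± 0.22 and 0.04 ± 0.22).

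Ccr3, the eotaxin receptor of eosinophils, stood at -5.31, -5.29, -5.35 and -5.49 in 21% O2 at P5 and at -6.57, -5.64, -5.14 and -5.91 in 85% O2, with 2 and 1 of 4 arrays above background. At P14 it stood at -1.04, -1.11, -1.03 and -2.04 in 21% O2 and at -4.96, -4.78, -4.66 and -4.95 in 85% O2. The groups overlapped at P5 (-0.46 ± 0.20, adjusted p = 0.083) and were wide apart at P14, where Ccr3 was 11.6-fold lower in 85% O2 (-3.54 ± 0.32, adjusted p = 8.5e-07), and the value was -1.73 with normexp background correction. Both eosinophil markers tested at P14, Il5ra (-2.86) and Prg2 (-2.58), were lower too, and their mean level ran from -2.82 to -2.27 in 21% O2 and from -5.60 to -4.99 in 85% O2. The part of eosinophil number in the Ccr3 value was not tested. Ccr4, a receptor of type 2 T cells, was above background on 3 of 4 arrays in 21% O2 and on 0 of 4 in 85% O2 at P14. It was at least 1.02-fold lower in 85% O2, with groups that overlapped. The adjusted p of its fitted difference was 0.017, and its sign turned under another background correction. Ccr8 was not called in this comparison (-0.42 ± 0.18, adjusted p = 0.055).

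The chemokines and receptors of lymphoid homing were not called at P5, and most fell at P14. Of the 4 tested, Ccl19, Ccr7, Cxcl13 and Cxcr5, adjusted p ran from 0.26 to 0.87 at P5, although another probe of Ccl19 was called there (-0.54), and 3 fell at P14. Cxcr5, which guides B cells to follicles, stood at -0.23, -0.34, -0.34 and -0.92 in 21% O2 at P14 and at -2.75, -3.07, -2.17 and -3.15 in 85% O2. Ccr7, which guides T cells and dendritic cells to lymph nodes, stood at 1.86, 1.66, 1.76 and 1.78 in 21% O2 at P14 and at 0.02, 0.50, 0.68 and 0.62 in 85% O2. In neither did the groups overlap at P14. Cxcr5 fell by 2.33 ± 0.26 on the log2 scale (5.02-fold, adjusted p = 5.5e-06) and Ccr7 by 1.31 ± 0.14 (2.48-fold, adjusted p = 3.1e-06). Ccl19, a ligand of CCR7, fell by 1.41 ± 0.18 on its brightest probe (2.65-fold, adjusted p = 2.0e-05), and its other probes fell by 1.71 and 1.54 on the log2 scale. The brightest probe of Ccl19 at P14 was not the one at P5, so these ages were read on different probes. Cxcl13, the ligand of CXCR5, was not called (-0.49 ± 0.22, adjusted p = 0.064).

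In the mucosal and skin set, 1 of 8 rose at P5, and on their brightest probes 1 rose and 3 were called lower at P14, Ccr6, Cxcl14 and Ccl27a. Ccr6, the receptor of CCL20 on B cells and some T cells, stood at -0.85, -1.05, -0.92 and -1.04 in 21% O2 at P14 and at -2.86, -2.61, -2.39 and -2.68 in 85% O2, with no overlap. It fell by 1.67 ± 0.15 on the log2 scale (3.18-fold, adjusted p = 8.5e-07), against 0.10 ± 0.11 at P5 (adjusted p = 0.46). Cxcl14, a chemokine of epithelium and fibroblasts, stood at 3.59, 3.39, 3.37 and 3.14 in 21% O2 at P14 and at 1.78, 2.22, 2.30 and 1.82 in 85% O2, a fall of 1.34 ± 0.20 (2.54-fold, adjusted p = 6.0e-05). Markers of adipocytes, 5 of 5, and of heart muscle, 4 of 6, were lower in the same comparison, with mean levels of -0.50 to 2.58 and 2.58 to 3.65 in 21% O2 against -5.61 to -5.29 and 0.39 to 1.85 in 85% O2, and fibroblast markers ran from 4.43 to 4.62 against 3.64 to 3.81. The part of these tissues in the Cxcl14 value was not tested. Ccl27a fell by 0.40 ± 0.09 on its brightest probe (adjusted p = 0.0016) and by 0.38 on another, while the remaining probe gave 0.67, also called, so no direction can be given for the gene.

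Cxcl17, a mucosal chemokine, rose 2.97-fold at P14 (1.57 ± 0.18, adjusted p = 7.4e-06), where every mouse in 85% O2 (2.26 to 2.66) lay above every mouse in 21% O2 (0.69 to 0.98). At P5 its 21% O2 mice ran from -0.96 to 1.45 and its difference was not called (0.47 ± 0.45). Ccl25, a chemokine of thymus and gut, rose at P5 by 0.31 ± 0.09 (adjusted p = 0.013) and was just short of the threshold at P14 (0.62 ± 0.26, adjusted p = 0.053).

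B cell markers fell beside the lymphoid receptors at P14, 8 of 8, led by Ms4a1 (-1.93) and Fcrla (-1.90), with a mean level of -0.08 to 0.21 in 21% O2 and -1.61 to -1.16 in 85% O2, and 6 of 8 T cell markers fell, led by Cd8a (-1.44) and Cd5 (-1.34), with mean levels of -0.53 to -0.24 and -1.48 to -0.61. At P5, 1 of 8 B cell markers and 1 of 8 T cell markers were lower and 0 higher. Thymus markers fell as well at P14, 5 of 6, led by Rag1 (-3.03) and Ptcra (-2.26), with mean levels of -4.45 to -3.85 in 21% O2 and -6.37 to -5.50 in 85% O2. The part of these cells in the falls of Cxcr5, Ccr7, Ccr6 and Ccl19 was not tested.

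The CXCL12 axis keeps CXCR4-bearing progenitors and leukocytes in tissue and guides growing vessels, and its receptor fell at both ages. Cxcr4 stood at 0.55, 0.37, 0.68 and 0.14 in 21% O2 at P5 and at -0.29, -0.16, -0.70 and -0.61 in 85% O2. At P14 the values were 0.96, 0.67, 0.92 and 0.78 in 21% O2 and at -2.05, -1.70, -1.54 and -1.51 in 85% O2. There was no overlap at either age, and Cxcr4 fell by 0.88 ± 0.15 on the log2 scale (1.84-fold, adjusted p = 0.00039) at P5 and by 2.53 ± 0.12 (5.78-fold, adjusted p = 1.7e-09) at P14. Cxcl12 fell on its brightest probe by 0.23 ± 0.08 at P5 (adjusted p = 0.034, groups overlapping), a call kept in 8 of 18 alternatives, and by 1.03 ± 0.11 at P14 (adjusted p = 2.5e-06). Its second probe gave 0.15 ± 0.12 at P5 and 1.18 ± 0.13 at P14 (adjusted p = 4.6e-06), the opposite direction, so the probes of Cxcl12 disagree at P14 and no direction can be given for the gene.

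Ccrl2, which binds the attractant chemerin on leukocytes and endothelium without passing on a signal, stood at 0.04, 0.10, 0.13 and -0.13 in 21% O2 at P5 and at -0.50, -0.29, -0.41 and -0.32 in 85% O2. At P14 it stood at 0.80, 0.89, 0.97 and 0.74 in 21% O2 and at -0.66, -0.67, -0.37 and -0.54 in 85% O2. It fell by 0.42 ± 0.07 on the log2 scale at P5 (adjusted p = 0.00031) and by 1.42 ± 0.09 at P14 (adjusted p = 3.3e-08), with no overlap at either age.

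**Figure D3:**
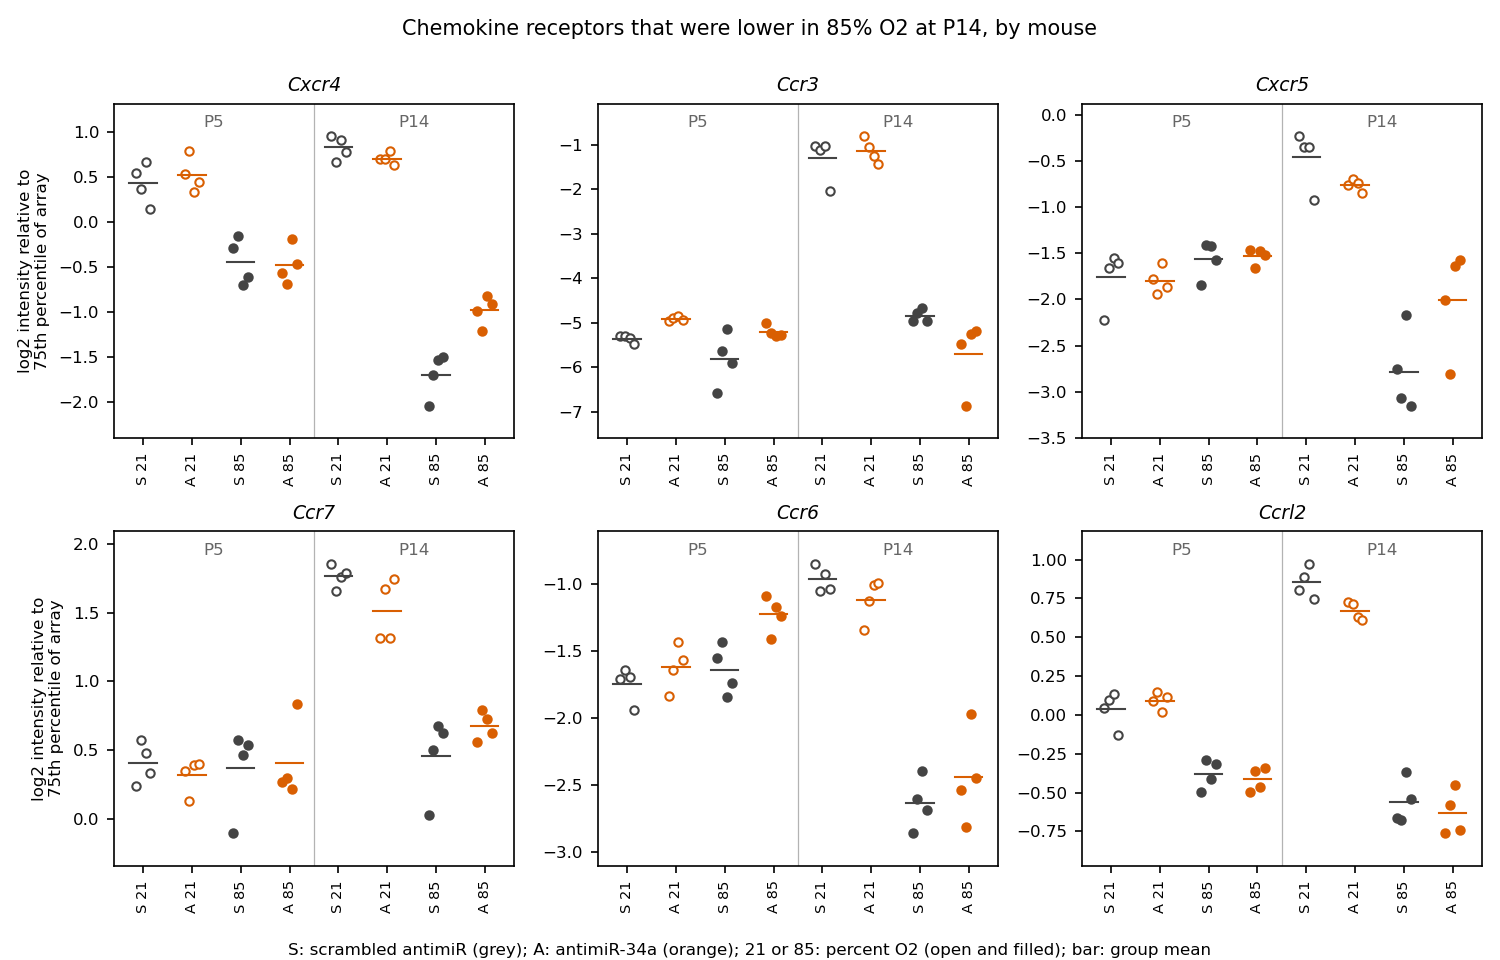
Level of 6 receptors in each mouse (y axis, log2 intensity less the 75th percentile of its array) in the 8 groups, with 1 point per mouse and a bar at the mean of 4. S is scrambled antimiR, A is antimiR-34a, and open and filled points are 21% and 85% O2. At P14 every receptor shown was lower in 85% O2 in every mouse, while at P5 that held for Cxcr4 and Ccrl2.

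The same oxygen comparison in mice that received antimiR-34a used other animals throughout. At P5, 26 of 45 members were called, 22 higher and 4 lower, against 47.8% of all tested genes, 21.0% higher and 26.8% lower, and without the dimmest array 29 members were called. Cxcl9, among the 4 lower, passed the filter at P5 only through the 21% O2 group with scrambled antimiR. It was above background on 0 of 4 arrays in 85% O2 with antimiR-34a, and its call was kept in 5 of 16 alternatives. Ccl1 and Xcl1, among those higher at P5, passed the filter there only through the 85% O2 group with scrambled antimiR. At P14, 39 of 48 were called, 22 higher and 17 lower, against 66.1% of all tested genes, 30.9% higher and 35.1% lower. At P5, 19 genes rose under both antimiRs (95% of the 20 with scrambled antimiR and 86.4% of the 22 with antimiR-34a), and at P14, 20 did (95.2% of 21 and 90.9% of 22). At P14, 12 genes fell under both, 92.3% of the 13 with scrambled antimiR and 70.6% of the 17 with antimiR-34a. Cxcl14 fell with scrambled antimiR and was not called with antimiR-34a (0.02 ± 0.20, adjusted p = 0.92).

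With antimiR-34a at P5, Cxcl5 stood at -3.50, -4.77, -3.14 and -2.77 in 21% O2 and at -0.27, 0.27, -0.96 and 0.27 in 85% O2, a rise of 10.4-fold (3.37 ± 0.42, adjusted p = 2.3e-05, and 2.47 with normexp). At P14 it rose 26.8-fold (4.74 ± 0.27, adjusted p = 1.1e-08, and 3.72 with normexp), Ccl2 18.4-fold, Ccl8 14.7-fold (3.87, and 3.11 with normexp), Cxcl10 14.2-fold and Ccl7 11.5-fold, and Ccl1 was at least 7.95-fold higher. Xcr1 was at least 2.85-fold higher in 85% O2 at P14, where it was above background on 4 of 4 arrays, against 0 of 4 in 21% O2. Since Ccl1, Xcl1 and Xcr1 passed the filter at P14 only through the 85% O2 groups, their direction, which counts among the 22 higher, follows in part from it. Both limits hold for the scanner's background correction alone, since normexp gave fitted differences of 1.37 for Ccl1 and 0.66 for Xcr1 on the log2 scale. Ccl1 was called at P5 as well, although no array of either group was well above background, so no fold is given.

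Among the genes that fell with antimiR-34a at P14, Ccr3 was lower in 85% O2 with a measured difference of -4.56 ± 0.32 (adjusted p = 8.3e-08), had 1 of 4 arrays in 85% O2 above background and ran from -4.73 to -2.08 over the alternatives. Ccr4 was at least 1.73-fold lower, but it passed the filter only through the 21% O2 group of this comparison, so its direction follows in part from the filter. Cxcr4 was 3.23-fold lower (-1.69 ± 0.12, adjusted p = 7.0e-08). Ccr9, a homing receptor of thymocytes and gut T cells, fell by 1.19 ± 0.23 on the log2 scale (adjusted p = 0.00051) and Cxcl13 by 1.08 ± 0.22 (adjusted p = 0.00056). Thymus markers were lower too, 6 of 6, with a mean level of -4.06 to -2.39 in 21% O2, highest in replicate 1, and of -6.18 to -5.58 in 85% O2. Without that replicate Ccr9 gave -1.03, and over the alternatives it ran from -1.42 to -0.59. The part of thymus tissue in the Ccr9 value was not tested. Of the 18 receptors, 4 were called higher and 11 lower with antimiR-34a. The 11 include Ccr8 (-0.48 ± 0.18, adjusted p = 0.031), which passed the filter only through both 21% O2 groups and turned to 0.38 under quantile normalization (adjusted p = 0.046).

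Chemokine genes lie in clusters, and the array's own mm9 coordinates place 11 of the members in 2 short stretches of chromosome 11. In the first, of 139.6 kb (chr11:81850650-81990227, from the Ccl2 probe to the Ccl1 probe), lie Ccl2, Ccl7, Ccl11, Ccl12, Ccl8 and Ccl1, of which 5 of 6 rose at P5 and 6 of 6 at P14. In the second, of 138.8 kb (chr11:83339296-83478111), lie Ccl5, Ccl9, Ccl6, Ccl3 and Ccl4, of which 4 of 5 rose at P5, and at P14 4 rose and Ccl5 fell. With antimiR-34a at P14, 6 of 6 rose in the first, and 4 rose and 1 fell in the second. Over all tested genes, 21.1% rose at P5 and 29.4% at P14 with scrambled antimiR, and 30.9% at P14 with antimiR-34a. Ccl1 counts among the risen genes of the first stretch, but it passed the filter only through 85% O2 groups. Its direction follows in part from the filter.

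The neighbours within a stretch moved by very different amounts. In the first, the P14 change ran from 0.79 for Ccl11 to 4.72 for Ccl2, and in the second from -0.80 for Ccl5 to 1.67 for Ccl9. On chromosome 5, 7 of 9 CXC chemokines were kept, of which 3 rose at P5, and 3 rose and 1 fell at P14.

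**Figure D4:**
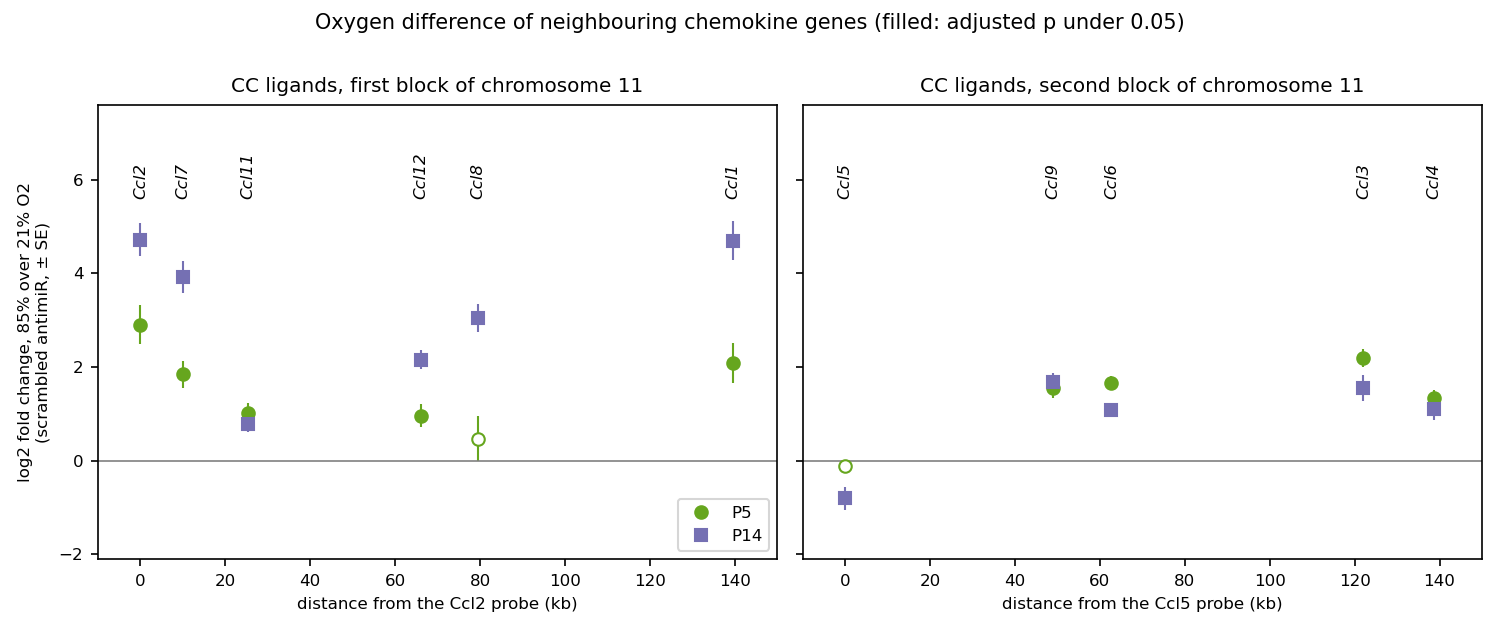
Log2 fold change, 85% over 21% O2 with scrambled antimiR (y axis, ± SE), of the genes in both chemokine stretches of chromosome 11, set at the distance of their probe from the first probe of the stretch (x axis, kb). Circles are P5, squares are P14, and filled points passed the adjusted p of 0.05. In the first stretch all 6 genes were called at P14, and in the second Ccl5 alone lay below 0 there (-0.80). The Ccl1 points are fitted values against signals below background, and the text gives its lower limits.

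Whether the oxygen difference itself changed with age was tested as an interaction in the scrambled antimiR groups, with all 32 arrays in the fit. It was called for 18 of 48 members (37.5%), near the 40.7% of all tested genes. In 8 the P14 difference was the more positive, against 22.1% of all tested genes, and all 8 were chemokines. In 10 it was the more negative, against 18.6% of all tested genes, and these were 6 receptors and 4 chemokines. Ccl1, among the 8, was not well above background in 21% O2 at either age. Among the gains were Ccl8 with 2.58 ± 0.59 (adjusted p = 0.0013), a gene at the edge of detection at P5, Ccl7 with 2.07 ± 0.46 (adjusted p = 0.00095) and Ccl2 with 1.81 ± 0.56 (adjusted p = 0.012). On the other side stood Ccr3 with -3.08 ± 0.40 (adjusted p = 2.0e-06, and -1.65 with normexp), likewise at the edge of detection at P5, Cxcr5 with -2.52 ± 0.31 (adjusted p = 8.9e-07), Ccr6 with -1.77 ± 0.19 (adjusted p = 1.8e-07) and Cxcr4 with -1.65 ± 0.20 (adjusted p = 6.6e-07). Of the genes that rose, 18 rose at both ages (90% of 20 at P5 and 85.7% of 21 at P14). Ccl25 and Cxcr6 were called at P5 and not at P14, and Ccl8, Cxcl17 and Cxcr2 at P14 and not at P5. Of these 5, the interaction was called for Ccl8 and not for the others. All 3 called lower on their brightest probe at P5 were called lower on it at P14 too (23.1% of 13), among them Cxcl12, whose probes disagree, and 0 genes moved in opposite directions on these probes.

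Age alone was compared in 21% O2 with scrambled antimiR. From P5 to P14, 25 members rose and 2 fell of 48, against 29.5% and 22.5% of all 27107 tested genes. The median change was 0.61, against 0.06 over all tested genes. Receptors carried much of it, with 13 of 18 higher and 0 lower, and 12 of 30 chemokines were higher and 2 lower. Cxcl14 was 7.95-fold higher at P14 (2.99 ± 0.19, adjusted p = 5.4e-12) and Ccl17 4.90-fold (2.29 ± 0.24, adjusted p = 2.8e-08). Ccr3 gave 4.06 ± 0.28 (adjusted p = 2.4e-11) and Ccl8 2.73 ± 0.42 (adjusted p = 7.3e-06), with 2 and 1 of 4 arrays at P5 above background, and over the alternatives they ran from 2.18 to 4.30 and from 1.08 to 3.08. Of the lymphoid set, Ccl19 rose by 1.87 ± 0.17 (2.87 over the mean of its probes), Ccr7 by 1.36 ± 0.15 and Cxcr5 by 1.30 ± 0.22 on the log2 scale. Those that fell with age were Cxcl5 (-1.56 ± 0.37, adjusted p = 0.0010) and Ccl11 (-0.59 ± 0.19, adjusted p = 0.012). Over the alternatives Cxcl5 ran from -1.78 to -0.94. Beside the receptors, 8 of 8 B cell markers and 7 of 8 T cell markers were higher at P14, as were both eosinophil markers, 7 of 8 dendritic cell markers (mean level -0.51 to -0.43 at P5 and 0.74 to 1.03 at P14) and 5 of 5 adipocyte markers (-4.90 to -2.67 and -0.50 to 2.58). Monocyte and macrophage markers had a mean level of 2.19 to 2.36 at P5 and 2.77 to 2.81 at P14. NK cell markers had one of -2.45 to -2.26 and -1.64 to -1.39. The part of these cell types in the chemokine and receptor values was not tested.

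The effect of antimiR-34a was compared within each age and oxygen level. In 21% O2 at P5, limma called 0 of 45 members, against 0.111% of all tested genes called, with 6 members and 17.0% of all tested genes under an unadjusted p of 0.05. In 85% O2 at P5 it called 0 of 45 and 0.0992% of all tested genes, with 12 members and 13.2% of all under that p. In 21% O2 at P14 it called 0 of 48 and 0% of all tested genes, with 5 members and 10.9% of all under it. The methods' t-test put 7, 6 and 10 members under an unadjusted p of 0.05 in these 3 comparisons and called 0 after adjustment in each. In 85% O2 at P14 limma called 2 of 48, against 2.30% of all tested genes, with 8 members and 15.9% of all under an unadjusted p of 0.05, while the methods' t-test put 3 under an unadjusted p of 0.05 and called 0.

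The members called in 85% O2 at P14 were Cxcr4 and Cxcl14, both higher with antimiR-34a. Cxcr4 stood at -2.05, -1.70, -1.54 and -1.51 with scrambled antimiR and at -0.99, -1.21, -0.82 and -0.91 with antimiR-34a, with no overlap. The difference was 0.71 ± 0.12 (1.64-fold, adjusted p = 0.0072), which left Cxcr4 below every 21% O2 mouse of that age (0.63 to 0.96). Over 19 fits (the reported one, those with other settings and those with 1 mouse left out) it was called in 17 and ran from 0.59 to 0.79.

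Cxcl14 stood at 1.78, 2.22, 2.30 and 1.82 with scrambled antimiR and at 2.32, 3.47, 2.69 and 2.92 with antimiR-34a. The groups nearly met, at 2.30 and 2.32, and the difference was 0.82 ± 0.20 (1.76-fold, adjusted p = 0.046). Over the 19 fits it was called in 6 and ran from 0.53 to 1.0, so its call depends on single arrays and settings. Among neutrophil markers, 2 of 9 were lower with antimiR-34a in this comparison and 0 of 8 B cell, 0 of 8 T cell, 0 of 9 macrophage and 0 of 6 fibroblast markers were called. The mean fibroblast marker level ran from 3.64 to 3.81 with scrambled antimiR and from 3.76 to 4.36 with antimiR-34a, against 4.43 to 4.62 in 21% O2 with scrambled antimiR. Replicate 4 of the antimiR-34a group stood apart in adipocyte markers (-0.68, against -5.36 to -4.92 in the other mice of its group) and was highest in heart muscle markers (2.79, against -0.70 to 1.20), and without it the Cxcl14 difference was 0.79 and not called. The part of these tissues in the Cxcl14 value was not tested.

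At P5 in 85% O2 the neutrophil chemoattractants had the smallest p-values, without passing adjustment. Cxcl5 stood at 2.37, 1.44, 1.43 and 1.91 with scrambled antimiR and at -0.27, 0.27, -0.96 and 0.27 with antimiR-34a. Cxcl1 stood at -2.74, -1.78, -1.75 and -1.13 with scrambled antimiR and at -3.97, -3.42, -3.19 and -2.91 with antimiR-34a. Neither gene overlapped between groups, with differences of -1.96 ± 0.42 for Cxcl5 (unadjusted p = 0.00038, adjusted p = 0.12) and -1.52 ± 0.33 for Cxcl1 (unadjusted p = 0.00037, adjusted p = 0.12). Each was called in 2 of 19 fits. The others under an unadjusted p of 0.01 with groups apart were Ccr6 (0.42 ± 0.11), Ccl4 (-0.55 ± 0.17) and Cxcl16 (-0.26 ± 0.08), with adjusted p of 0.17, 0.22 and 0.22.

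**Figure D5:**
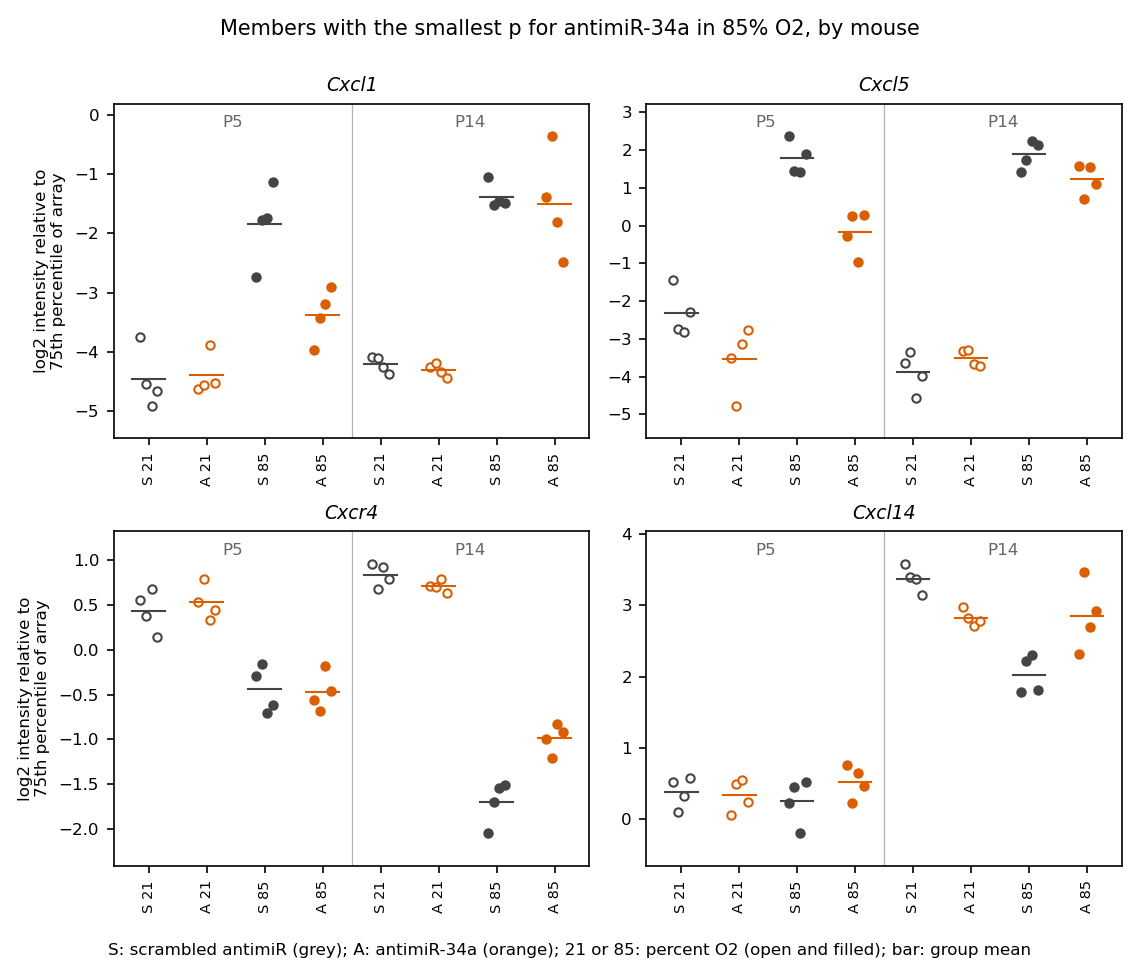
Level of Cxcl1, Cxcl5, Cxcr4 and Cxcl14 in each mouse (y axis, log2 intensity less the 75th percentile of its array) in the 8 groups, with 1 point per mouse and a bar at the mean of 4. S is scrambled antimiR, A is antimiR-34a, and open and filled points are 21% and 85% O2. In 85% O2 the antimiR groups did not overlap for Cxcl1 and Cxcl5 at P5 (adjusted p = 0.12 each) or for Cxcr4 and Cxcl14 at P14 (adjusted p = 0.0072 and 0.046).

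In 21% O2 the smallest p at P5 belonged to Cxcl17 (-1.63 ± 0.45, adjusted p = 0.14), followed by Cx3cl1 (0.23 ± 0.07) and Cxcl5 (-1.23 ± 0.42, adjusted p = 0.2). At P14 it belonged to Ccl25 (0.81 ± 0.26, adjusted p = 0.46), followed by Cxcl14 (-0.55 ± 0.20, adjusted p = 0.46) and Ccr9 (0.56 ± 0.23, adjusted p = 0.46). The Cxcl17 groups overlapped, with 1.37, -0.36, -0.96 and 1.45 under scrambled antimiR and -1.54, -1.48, -0.93 and -1.07 under antimiR-34a. The 2 high mice, replicates 1 and 4, also had the highest marker levels of their group for heart muscle (3.51 and 3.34, against 1.78 and 1.31), fibroblasts (4.25 and 4.59, against 3.69 and 3.55) and adipocytes (-2.67 and -3.39, against -4.17 and -4.90), and the part of these in the Cxcl17 value was not tested. The Ccl25 value leaned on 1 mouse of the antimiR-34a group, replicate 1, at 1.46 against -0.27 to 0.09 in the other mice of the group. The same mouse held more thymus marker mRNA than its group, with a mean level of -2.39 against -4.06 to -3.71, and the part of thymus tissue in its Ccl25 value was not tested.

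The interaction of oxygen and antimiR-34a asks whether antimiR-34a changed the response to 85% O2. At P5 limma called 0 of 45 members and 0.0516% of all tested genes, with 7 members and 10.9% of all under an unadjusted p of 0.05, and the smallest p belonged to Cxcl1 (-1.59 ± 0.46, adjusted p = 0.25), then Cxcl16 (-0.33 ± 0.12, adjusted p = 0.34) and Ccl3 (-0.75 ± 0.28, adjusted p = 0.37). At P14 it called 0 of 48 and 0.0673% of all tested genes, with 11 members and 14.8% of all under an unadjusted p of 0.05. The smallest p-values at P14 belonged to Cxcr4 (0.84 ± 0.17, adjusted p = 0.079) and Cxcl14 (1.37 ± 0.28, adjusted p = 0.090). Each of these 2 was called in 4 of 26 fits, among them those with array weights (adjusted p = 0.0079 for Cxcr4 and 0.0093 for Cxcl14) and without both 21% O2 arrays at P14 that stood apart in brightness (0.0089 and 0.0060), the latter chosen after seeing the data. That the fall of Cxcl14 in 85% O2 differed between the antimiRs was therefore not called with all arrays at equal weight, and the call depends on which arrays are kept.

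Genes of the same system that carry other names were read for context. Of 8 chemokines and scavenger receptors under other names, 2 rose and 1 fell in 85% O2 with scrambled antimiR at P5, and 3 rose and 3 fell at P14. Of all tested genes, 21.1% rose and 24.6% fell at P5, and 29.4% rose and 31.8% fell at P14. Ackr3, a decoy receptor that takes up CXCL12, rose by 0.98 ± 0.12 at P5 (adjusted p = 2.2e-05) and by 1.67 ± 0.16 at P14 (adjusted p = 1.1e-06) on the log2 scale, and so moved opposite to Cxcr4. Ackr4, a decoy receptor for the CCR7 and CCR9 ligands, fell by 1.30 ± 0.22 on the log2 scale (adjusted p = 0.00030) and 3.44 ± 0.35 (adjusted p = 2.1e-06). The platelet chemokines parted at P14, with Pf4 higher (1.09 ± 0.10, adjusted p = 6.1e-07) and Ppbp lower (-1.32 ± 0.40, adjusted p = 0.011).

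Of 25 genes of chemokine receptor signalling, 10 rose and 5 fell at P5, against 21.1% and 24.6% of all tested genes. At P14, 6 rose and 7 fell, near the 29.4% and 31.8% of all tested genes. Rgs2, which shortens G protein signals, fell by 1.16 ± 0.11 on the log2 scale (adjusted p = 1.7e-06) and 1.56 ± 0.20 (adjusted p = 1.5e-05). Rgs1, which does so in lymphocytes, rose by 1.05 ± 0.18 at P5 (adjusted p = 0.00032) and was not called at P14 (-0.16 ± 0.54), when Gnb1, a G protein subunit, rose by 0.78 ± 0.09 (adjusted p = 6.8e-06).

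Of 15 cytokines, sensors and NF-kappaB factors and inhibitors, 14 rose and 0 fell at P5, against 21.1% and 24.6% of all tested genes. At P14, 9 rose and 1 fell, against 29.4% and 31.8%. The cytokine Il6 rose by 2.43 ± 0.24 (adjusted p = 3.6e-06) and 4.64 ± 0.42 (adjusted p = 7.6e-07) on the log2 scale, Tnf by 1.05 ± 0.18 (adjusted p = 0.00031) and 1.70 ± 0.17 (adjusted p = 2.4e-06), and the NF-kappaB subunit Relb by 1.21 ± 0.11 (adjusted p = 1.3e-06) and 1.32 ± 0.10 (adjusted p = 1.7e-07). The one that fell at P14 was Nfkb1, another subunit (-0.63 ± 0.09, adjusted p = 3.7e-05). With antimiR-34a in 85% O2, 1 of the 15 was called lower at P5, the NF-kappaB inhibitor Tnfaip3 (-0.51 ± 0.09, adjusted p = 0.048), and 1 at P14, the inhibitor Nfkbia (-0.49 ± 0.10, adjusted p = 0.021).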

How the data were processed

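Total RNA of mouse lungs was hybridised to one-colour Agilent arrays, 1 mouse per array. The authors deposited the scanner's output (Agilent Feature Extraction 10.7.3.1), whose processed signal is an intensity on a linear scale with the background already subtracted, and a table of log2 values, used as an alternative only.

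Outlier and control spots were left out, spots of a probe were averaged, and log2 of the processed signal was centred on the 75th percentile of each array. Tested were probes that the scanner put well above background in all 4 mice of some group, with limma 3.58.1 in R 4.3.3 on the 16 arrays of an age, or on all 32 for comparisons of ages, with Benjamini-Hochberg adjustment over all tested probes. A gene was read on its brightest tested probe. No probe was saturated, and the number of arrays limits the precision. "The methods' t-test" is Welch's approximation, as the study's methods name it, on the same values. Groups follow the labels. Named by mouse were the 10 members with the largest called changes and groups apart in each oxygen comparison with scrambled antimiR, and a few main ligands and receptors. The antimiR comparisons and interactions name every called member or the 3 with the smallest p, and other lists the 2 largest called changes. The members and gene lists were chosen with earlier results of these data known. One member, included in the counts, is not reported here. Scripts were tested on simulated data. Alternatives were background correction, normalization, filter, blocks, weights, probes, test and each array left out.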

Additional observations from a re-analysis of the deposited data

Results flagged for a closer look

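The oxygen difference at P14 minus that at P5, with scrambled antimiR, differed from 0 in the limma interaction for 18 members. It was positive, on the log2 scale, for Ccl1 (2.61), Ccl8 (2.58), Ccl7 (2.07), Ccl2 (1.81), Cxcl5 (1.66), Ccl12 (1.20), Ccl17 (0.91) and Cx3cl1 (0.33). It was negative for Ccr3 (-3.08), Cxcr5 (-2.52), Ccr6 (-1.77), Cxcr4 (-1.65), Ccl19 (-1.27), Ccr7 (-1.27), Cxcl14 (-1.21), Ccrl2 (-1.0), Cxcl12 (-0.80) and Ccl6 (-0.58). The Ccl1 value includes arrays in 21% O2 on which its probe was not well above background, and the Cxcl12 value turned to 0.12 when its probes were averaged. Over the alternatives Ccl1 ran from 1.15 to 2.93 and Cxcl5 from 0.95 to 1.86.

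A single mouse stood far from the other mice of its group in 9 of the 120 groups of 4 examined for the 15 members so tested, where chance alone would give about 6, or 1 in 20. Those in 21% O2 at P14 with scrambled antimiR were all replicate 4, 1 of the arrays that stood apart in brightness, which was low for Ccl6 (3.96), Ccl9 (0.14) and Ccr3 (-2.04). Replicate 2 of the antimiR-34a group at P14 was high for Ccl4 in 21% O2 (-2.36), and replicate 2 in 85% O2 was low for Ccr3 (-6.87). At P14 in 85% O2 with scrambled antimiR, replicate 1 was high for Cxcl1 (-1.06). At P5, replicate 1 in 85% O2 was high for Ccl6 with antimiR-34a (5.63) and low for Ccl9 with scrambled antimiR (1.59), and replicate 3 in 21% O2 with antimiR-34a was high for Cxcl1 (-3.88).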

How the results depend on the processing

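Of 169 called pairs of gene and comparison, 41 lost their call or changed sign in at least 1 alternative, and 10 values changed sign. A pair that an alternative could not test was not counted as lost. Keeping only probes above background on every array left 146 of the 169 pairs to test. Leaving out 1 array, members called ran from 22 to 25 and 32 to 35 for oxygen with scrambled antimiR at P5 and P14, 23 to 29 and 36 to 40 with antimiR-34a, 0 to 0 for antimiR-34a in 21% O2 at both ages, 0 to 2 and 1 to 2 for it in 85% O2 at P5 and P14 (the 2 at P5, Ccl2 and Cxcl1, without replicate 1 of the scrambled antimiR group), 0 to 0 and 0 to 2 for the interaction of oxygen and antimiR-34a at P5 and P14, 16 to 21 for that of oxygen and age, and 24 to 27 for age. For antimiR-34a in 85% O2 at P5, normexp background correction called 1 (Cxcl5) and no filter on dim probes 5. In 85% O2 at P14, normexp, no filter and the replicate block called 1 each (Cxcr4), and the methods' t-test and the fit of only the groups compared 0. In 21% O2 at P5 the latter called 1 (Ccr3). In 21% O2 at P14, array weights called 14 and, chosen after seeing the data, leaving out both arrays that stood apart in brightness called 4. For the interaction at P14 these called 7 and 5. Averaging a gene's probes reversed Cxcl12 (0.079 and 0.27 for oxygen at P14 with scrambled antimiR and antimiR-34a, 0.12 for oxygen by age, -0.17 for age), Cxcl9 (0.24, oxygen with antimiR-34a at P5) and Ccl27a (0.058, the same at P14). Ccr4 turned to 0.24 with normexp (oxygen, scrambled antimiR, P14), and Ccr8 to 0.057 with normexp, 0.38 with quantile normalization and 0.37 in the authors' values (oxygen, antimiR-34a, P14). The cause was not tested. Replicate numbers did not pair the samples (for antimiR-34a in 21% O2 at P14, same-numbered mice correlated at 0.42, -0.06, -0.35 and 0.50), and the replicate block lost 5 of the 169 calls. The methods' t-test has no interaction.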
